A study of Homo sapiens with 6 samples.

Results

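The 35 genes described here form the glycolytic pathway and the transcriptional response to low oxygen: glucose carriers, the enzymes that turn glucose into lactate, the lactate carriers, the oxygen sensing genes HIF1A, EGLN1 and EGLN3, and targets of the hypoxia-inducible factor (HIF) that take no part in glycolysis. They are a list of names that was drawn up with earlier results of these data known, and all 35 were found by symbol among the 28495 genes of the deposited table. The 6 RNA-seq libraries came from NCI-H1299, a human lung carcinoma cell line labelled as lung adenocarcinoma. Of these, 3 came from cells in which CFB, the complement factor B gene, was targeted for silencing (sh-CFB), and 3 came from cells given the control construct (sh-NC). No other treatment is given in the labels. Both groups are the same single cell line, and nothing in the labels says whether the replicates were separate cultures, so the p-values below measure the spread between these libraries, which may be technical. The labels name the constructs as hairpins, whereas the column names of the table carry an siRNA-style tag, and the kind of reagent was not settled from the sources used here.

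Values are FPKM, which scales the fragments counted for a gene by its length and by the size of its library. Library totals recovered from the values were 26230379, 33383762 and 38421873 reads in sh-CFB replicates 1 to 3 and 39445222, 40031649 and 32941678 reads in sh-NC replicates 1 to 3. CFB itself (ENSG00000243649) was barely transcribed in either group, with 0, 0 and 2 reads in sh-CFB and 1, 6 and 5 reads in sh-NC. These groups overlapped and the two-sided exact permutation p was 0.2, where 3 against 3 libraries can give no less than 0.1, so these counts are too few to check the silencing. The epithelial and mesenchymal marker list of the line summed to 590 to 693 FPKM in sh-CFB and 551 to 699.9 FPKM in sh-NC. Most of this was VIM, KRT8 and KRT18, and EPCAM and CDH1 were near 0. The lists for immune cells, fibroblasts and endothelium each summed to under 1 FPKM in every library. Libraries also differed within groups by the GC content of the genes they favoured. The Spearman correlation of each gene's deviation from its mean with its GC content was 0.60, -0.10 and -0.16 in sh-CFB replicates 1 to 3 and -0.55, -0.25 and 0.23 in sh-NC replicates 1 to 3. The 2 replicate 1 libraries stood at opposite ends of this scale, so values without both of them, or after a correction for GC content and transcript length (the GC correction), are given where they alter a result.

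Glycolysis splits glucose into pyruvate in the cytosol, and lactate dehydrogenase then reduces pyruvate to lactate, which leaves the cell through monocarboxylate carriers. Tumour cells commonly run this route even where oxygen is present. HIF-1, a dimer of HIF1A and ARNT, is held low in oxygen by the prolyl hydroxylases of the EGLN family, which mark HIF1A for destruction through VHL. When oxygen is short, HIF1A accumulates, mainly as protein, and the dimer binds short motifs near genes for glucose carriers, most glycolytic enzymes, PDK1, VEGFA, CA9 and the EGLN genes. The mRNA level of HIF1A is therefore no measure of HIF activity.

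The core of the HIF binding motif is ACGTG or GCGTG, and both were searched on both strands in the 250 bases before 1 transcript start per gene, taken from the RefSeq promoter table (GRCh38.p14). That start need not be the outermost one of the gene. Promoters were found for 30 of the 35 genes, the others being SLC2A3, SLC16A1, BNIP3L, NDRG1 and VEGFA. A motif was present in 18 of 30 (60%), in 11 of 21 genes of the glycolytic steps (52.4%) and in 6 of 8 HIF targets (75.0%), against 11763 of 27305 promoters in the whole RefSeq promoter table (43.1%). For 15 of the 30 genes the RefSeq start lay within 500 bases of the outer end of the gene's GENCODE 29 span, and 10 of these 15 held a motif. For the other 15 it lay further inside the span, and 8 of those held one. Below are the windows of LDHA and PFKL, which passed the test, and of BNIP3, the HIF target with the smallest adjusted p. Their RefSeq starts lay 175, 2 and 90 bases inside the GENCODE span. PGAM1 also passed, but its RefSeq start lay 1658 bases inside, so its window is not shown. That window held 0 matches, which describes that start only, and PGAM1 is among the 30 genes counted above. Each window shown is written 5′ to 3′ on the gene's own strand, with the letters of a match in capitals. LDHA held 5 matches, all ACGTG, and those in CACGTG count on both strands because that word reads the same on either. PFKL held 1 (GCGTG) and BNIP3 held 6, of which 2 were ACGTG and 4 were GCGTG. The windows are chr11:18394313-18394562 on the forward strand for LDHA, chr21:44299803-44300052 on the forward strand for PFKL and chr10:131981924-131982173 on the reverse strand for BNIP3.
LDHA: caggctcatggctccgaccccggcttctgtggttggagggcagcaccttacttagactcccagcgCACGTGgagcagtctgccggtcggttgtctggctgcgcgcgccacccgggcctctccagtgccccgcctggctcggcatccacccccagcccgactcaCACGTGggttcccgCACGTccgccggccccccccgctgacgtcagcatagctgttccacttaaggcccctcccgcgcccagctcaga
PFKL: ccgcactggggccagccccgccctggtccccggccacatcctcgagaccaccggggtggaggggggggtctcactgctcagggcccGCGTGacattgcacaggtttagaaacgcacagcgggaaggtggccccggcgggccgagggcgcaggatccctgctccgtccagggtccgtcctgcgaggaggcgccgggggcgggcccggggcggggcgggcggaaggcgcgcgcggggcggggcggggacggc
BNIP3: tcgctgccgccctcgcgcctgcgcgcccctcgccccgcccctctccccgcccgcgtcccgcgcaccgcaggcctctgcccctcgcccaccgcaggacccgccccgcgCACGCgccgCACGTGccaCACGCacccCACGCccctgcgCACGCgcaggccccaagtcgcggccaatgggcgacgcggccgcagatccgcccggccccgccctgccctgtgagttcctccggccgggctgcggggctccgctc
A match in these letters is a description and says nothing of whether HIF binds there in NCI-H1299.

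Of the 35 genes, 32 had a mean of at least 0.5 FPKM over the 6 libraries and entered the test, and EGLN3, ALDOC and CA9 did not. PFKL, a subunit of phosphofructokinase, rose in sh-CFB, while PGAM1, the phosphoglycerate mutase, and LDHA, the main lactate dehydrogenase subunit, fell. The other 29 did not pass. These calls are from limma on log2(FPKM + 0.5) with p-values adjusted over all 12466 tested genes (Benjamini-Hochberg, threshold 0.05). One gene of 32 was thus called higher, where 1.74% of all tested genes were, and 2 of 32 were called lower, where 5.71% of all tested genes were. In either direction the share was 9.38% of the 32 genes, beside a background of 7.45%. The number of calls was therefore close to the background. In bulk RNA, fewer cells of a kind and less RNA per cell cannot be told apart.

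The log2 differences ran in both directions, 16 above 0 and 16 below, with a median of 0.01, beside -0.15 for all tested genes. FPKM values of the groups did not overlap for 14 of the 32 genes (43.8%), 8 higher and 6 lower in sh-CFB, beside 33.7% of all tested genes. Scaling by median-of-ratios factors moved the median of all tested genes to 0.02, the median of the 32 to 0.21 and the signs to 18 above 0 and 14 below. Under that scaling limma called none of the 32, and voom under the same scaling called 0. In the limma fit 11 of the 32 had an unadjusted p under 0.05, as had 2723 of all 12466 tested genes. After the GC correction, 20 were above 0 and 12 below, 5 were called higher beside a background of 4.56%, and 1 was called lower beside a background of 6.04%. Those 5 were SLC2A3, PFKFB4, BNIP3, P4HA1 and P4HA2, and the 1 lower was PGAM1.

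**Figure D1:**
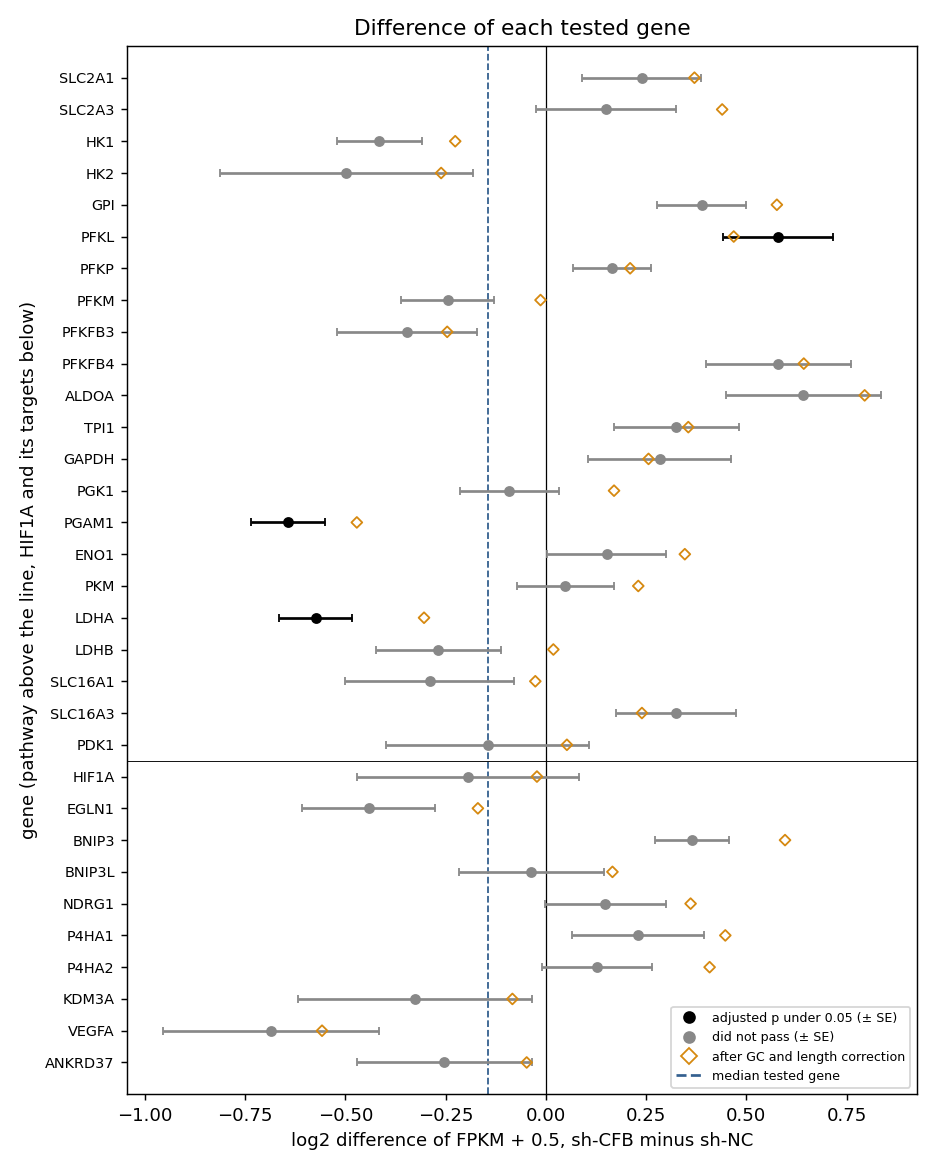
Difference of each of the 32 tested genes on the log2(FPKM + 0.5) scale, sh-CFB minus sh-NC, with its standard error, where black points passed limma at an adjusted p of 0.05 and grey points did not. Diamonds give the value after the GC correction and the dashed line the median tested gene at -0.15, so PFKL is seen at 0.58 and PGAM1 and LDHA at -0.64 and -0.57.

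Glucose enters through the carriers SLC2A1 (GLUT1) and SLC2A3 (GLUT3), both high in these cells. SLC2A1 was 62.1, 52.8 and 56.9 FPKM in sh-CFB and 56.7, 51.3 and 38.8 FPKM in sh-NC. The groups overlapped, and the log2 difference was 0.24 (SE 0.15, 95% interval -0.10 to 0.58, limma adjusted p 0.355). SLC2A3 was 99.4, 118 and 124 FPKM in sh-CFB and 121, 113 and 77.9 FPKM in sh-NC. The low library here was sh-NC replicate 3, and the log2 difference of 0.15 had a limma adjusted p of 0.638. After the GC correction it was 0.44 with an adjusted p of 0.0483, a call that the uncorrected values did not give.

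Hexokinase traps glucose as glucose 6-phosphate, and the 2 isozymes read here were at like levels. HK1, the widely expressed form, was 22.7, 25.8 and 25.6 FPKM in sh-CFB and 33.6, 35.8 and 30.0 FPKM in sh-NC. Every sh-CFB library lay below every sh-NC library, but the log2 difference of -0.42 (SE 0.11) stayed just outside the threshold at a limma adjusted p of 0.0552. HK2, the HIF-responsive form, was 19.3, 24.1 and 25.9 FPKM in sh-CFB and 51.7, 34.5 and 19.3 FPKM in sh-NC. The lowest values of the groups nearly met, at 19.28 FPKM in sh-CFB and 19.29 FPKM in sh-NC, and 2 sh-NC libraries lay above all of sh-CFB. The log2 difference was -0.50 with an SE of 0.32 (limma adjusted p 0.366). GPI, which makes fructose 6-phosphate, was 383, 327 and 316 FPKM in sh-CFB and 253, 281 and 248 FPKM in sh-NC. Its groups did not overlap, with a log2 difference of 0.39 (limma adjusted p 0.0770).

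Phosphofructokinase commits the sugar to glycolysis, and its 3 subunit genes did not show the same values. PFKL (ENSG00000141959, chromosome 21, 44300051 to 44327376, GRCh38), the liver-type subunit, was 89.3, 69.3 and 65.4 FPKM in sh-CFB and 44.3, 53.0 and 51.2 FPKM in sh-NC. All 3 sh-CFB libraries lay above all 3 sh-NC libraries, with means of 74.7 ± 12.8 and 49.5 ± 4.58 FPKM (SD, n = 3 each). The difference was 0.58 on the log2 scale (SE 0.14), or 1.49-fold, with a limma adjusted p of 0.0472. The call lay at the edge of the threshold: leaving out any one of the 6 libraries ended it (adjusted p 0.0662 to 0.144), as did the GC correction (0.47, adjusted p 0.0655) and median-of-ratios scaling (0.78, adjusted p 0.131). PFKL also had the highest GC content of the 32 genes, 64.1%, and was highest in sh-CFB replicate 1, the library that most favoured GC-rich genes. The part of GC content in the result was not tested beyond these values, and without both replicate 1 libraries the difference was 0.37 with an adjusted p of 0.0678.

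PFKP, the platelet-type subunit, was 111, 104 and 101 FPKM in sh-CFB and 92.9, 102 and 86.7 FPKM in sh-NC. Those groups overlapped, with a log2 difference of 0.17 (limma adjusted p 0.329). PFKM, the muscle-type subunit, was 19.5, 23.5 and 24.6 FPKM in sh-CFB and 27.4, 27.9 and 24.7 FPKM in sh-NC, a log2 difference of -0.24 (limma adjusted p 0.230). Set against their sum, PFKL made up 40.6, 35.2 and 34.3% of the 3 subunit genes in sh-CFB, against 26.9, 28.9 and 31.5% in sh-NC. PFKP made up 52.1 ± 1.35% in sh-CFB, against 55.2 ± 1.64% in sh-NC, and PFKM 11.2 ± 2.10% in sh-CFB, against 15.7 ± 0.837% in sh-NC (SD, n = 3 each). PFKP stayed the main subunit transcript in every library.

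The level of fructose 2,6-bisphosphate, the strongest activator of phosphofructokinase, is set by the PFKFB enzymes. PFKFB3, the form with the highest kinase activity, was 5.40, 6.37 and 7.53 FPKM in sh-CFB and 9.86, 8.36 and 6.79 FPKM in sh-NC, with a log2 difference of -0.35 (limma adjusted p 0.253). PFKFB4 was 45.0, 41.9 and 43.6 FPKM in sh-CFB and 36.1, 31.3 and 21.3 FPKM in sh-NC, with a log2 difference of 0.58 (SE 0.18, limma adjusted p 0.0946). Its groups did not overlap, and the GC correction brought it to 0.64 with an adjusted p of 0.0475. PFKFB4 was the more abundant of the pair in every library.

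Aldolase and triose phosphate isomerase complete the upper steps of the route. ALDOA was 44.9, 32.5 and 25.1 FPKM in sh-CFB and 21.0, 22.4 and 19.99 FPKM in sh-NC. The sh-CFB libraries all lay higher and were also the more spread, and the log2 difference of 0.64 (SE 0.19) had a limma adjusted p of 0.0858. It passed only where sh-CFB replicate 3 was left out (0.84, adjusted p 0.0467), and not under the other 18 alternatives. In GENCODE 29, 42.3% of the exon bases of ALDOA are shared with AC093512.2 on the same strand, so its count is uncertain. ALDOC, the brain-type form, stayed at 0.115 to 0.291 FPKM in all 6 libraries (two-sided exact permutation p 0.9). TPI1 was 2271, 1895 and 1790.0 FPKM in sh-CFB and 1374, 1602 and 1779 FPKM in sh-NC, values that did not overlap but nearly met (log2 difference 0.32, limma adjusted p 0.234).

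By the deposited values, the most abundant transcripts of the set were TPI1 and 4 genes of the lower steps of the route. By mean FPKM, GAPDH ranked 2 of the 28495 genes, ENO1 ranked 19, TPI1 ranked 22, PGK1 ranked 26 and PKM ranked 55. These 5 made up 90.8 to 92.0% of the summed FPKM of the glycolytic step genes in sh-CFB and 88.4 to 90.4% in sh-NC. That sum was 5.11, 4.71 and 4.52% of all FPKM in sh-CFB, against 4.19, 4.71 and 4.29% in sh-NC, so the groups overlapped. ALDOA, whose count is uncertain, ranked 1567, which limits this ranking and these shares.

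GAPDH, the dehydrogenase that yields NADH, was 9244, 7879 and 7158 FPKM in sh-CFB and 6092, 7077 and 6692 FPKM in sh-NC. The groups did not overlap, but the log2 difference of 0.28 had an SE of 0.18 (limma adjusted p 0.360), and quantile normalization gave -0.17. GENCODE 29 names 62 pseudogenes after GAPDH, so its count is uncertain too. PGK1, which makes the first ATP, was 1519.5, 1683 and 1607 FPKM in sh-CFB and 1569, 1817 and 1742 FPKM in sh-NC. Its groups overlapped, with a log2 difference of -0.09 (limma adjusted p 0.694) that became 0.11 under median-of-ratios scaling.

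PGAM1 (ENSG00000171314, chromosome 10, 97426160 to 97433441, GRCh38) moves the phosphate of 3-phosphoglycerate. It was 274, 256 and 262 FPKM in sh-CFB and 391, 423 and 425 FPKM in sh-NC, with no overlap and little spread in either group. The means were 264 ± 9.31 FPKM in sh-CFB and 413 ± 19.1 FPKM in sh-NC (SD, n = 3 each). PGAM1 fell by 0.64 on the log2 scale (SE 0.09), to 0.640 of the sh-NC level, with a limma adjusted p of 0.0131, and the call stood after the GC correction (-0.47, adjusted p 0.0178). It was lost without sh-CFB replicate 2 (-0.62, adjusted p 0.0666), without sh-NC replicate 2 (-0.63, adjusted p 0.0910) and under median-of-ratios scaling (-0.44, adjusted p 0.258). GENCODE 29 names 13 pseudogenes after PGAM1, and reads from near-identical copies could have been split between them. The next enzymes, on either side of phosphoenolpyruvate, did not pass. ENO1, the enolase, was 2355, 2011 and 1939.5 FPKM in sh-CFB and 1667, 1941 and 2072 FPKM in sh-NC (log2 difference 0.15, limma adjusted p 0.563). PKM, the pyruvate kinase, was 899, 775 and 752 FPKM in sh-CFB and 719, 806 and 819 FPKM in sh-NC (log2 difference 0.05, limma adjusted p 0.838). The groups overlapped for both genes. FPKM per gene does not separate the 2 splice forms of PKM.

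**Figure D2:**
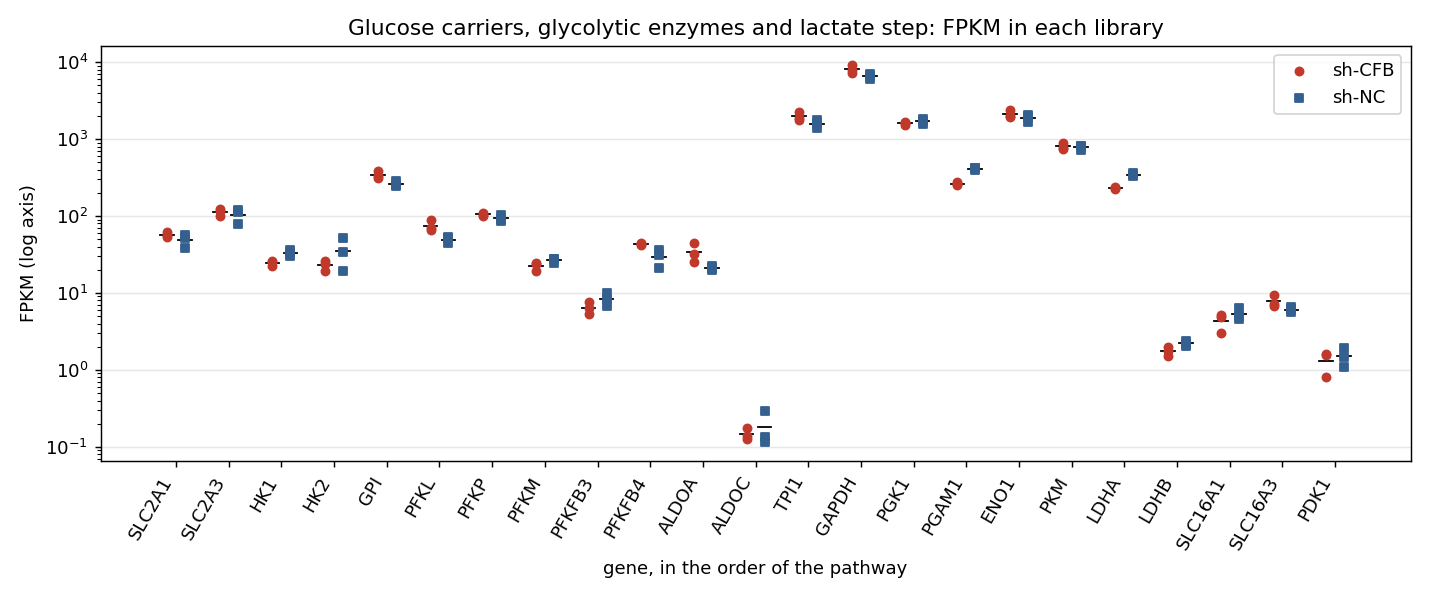
FPKM of the 23 genes of the glycolytic steps in each library on a log axis, ordered along the pathway, with sh-CFB as circles, sh-NC as squares and group means as black lines. PGAM1 at 256 to 274 FPKM in sh-CFB and 391 to 425 FPKM in sh-NC and LDHA further along stand apart between the groups, while ENO1 and PKM between them overlap. The groups do not overlap for 12 of the 22 tested genes (54.5%), beside 33.7% of all tested genes.

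By FPKM, the lactate dehydrogenase transcripts were almost wholly of the A type. LDHA (ENSG00000134333, chromosome 11, 18394388 to 18408425, GRCh38) was 227, 229 and 241 FPKM in sh-CFB and 342, 361 and 335 FPKM in sh-NC. The groups were well apart, with means of 232 ± 7.98 FPKM in sh-CFB and 346 ± 13.7 FPKM in sh-NC (SD, n = 3 each). LDHA fell by 0.57 on the log2 scale (SE 0.09), to 0.672 of the sh-NC level, with a limma adjusted p of 0.0148. Without both replicate 1 libraries it was as large (-0.57, adjusted p 0.0282), but the GC correction took it to -0.30 and an adjusted p of 0.205. The call was also lost without sh-CFB replicate 2 (adjusted p 0.0791), without sh-NC replicate 2 (adjusted p 0.1099) and under median-of-ratios scaling (-0.37, adjusted p 0.267). LDHB, the heart-type subunit, was 1.53, 1.75 and 1.98 FPKM in sh-CFB and 2.41, 2.03 and 2.20 FPKM in sh-NC. Although these did not overlap, the log2 difference of -0.27 had a limma adjusted p of 0.324 and was 0.02 after the correction. Of the exon bases of LDHB, 33.4% are shared with AC010197.2 on the same strand, so the LDHB count is uncertain. That limits the statement that the transcripts were almost wholly of the A type.

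Lactate leaves through SLC16A3 (MCT4) and is carried both ways by SLC16A1 (MCT1), and both genes were low. SLC16A3 was 9.49, 6.77 and 7.22 FPKM in sh-CFB and 5.65, 6.49 and 6.14 FPKM in sh-NC, without overlap (log2 difference 0.33, limma adjusted p 0.220). SLC16A1 was 3.06, 4.83 and 5.11 FPKM in sh-CFB and 6.43, 5.03 and 4.58 FPKM in sh-NC, with overlap (log2 difference -0.29, limma adjusted p 0.431). PDK1, the kinase that shuts pyruvate dehydrogenase and a HIF target, was 0.801, 1.57 and 1.60 FPKM in sh-CFB and 1.95, 1.47 and 1.09 FPKM in sh-NC. The lowest PDK1 value was sh-CFB replicate 1 and the highest sh-NC replicate 1, and the log2 difference was -0.15 (limma adjusted p 0.762).

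Over the glycolytic steps, 22 of 23 genes were tested, of which 1 was called higher, 2 lower and 19 not. Their median log2 difference was 0.10, and 0.22 after the GC correction, beside -0.15 and 0.01 for all tested genes. Groups did not overlap for 12 of the 22 (54.5%), 7 higher and 5 lower in sh-CFB. Over all tested genes, 1.74% were called higher, 5.71% were called lower and 33.7% did not overlap. Of the 22, 12 had a log2 difference above 0 and 10 below. PGAM1 and LDHA lay below 0, as did HK1, HK2, PFKM and PGK1 among others, which did not pass. GPI, ALDOA, TPI1 and GAPDH, which act in the same route, lay above 0 and did not pass either.

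The balance between related genes was read as the difference of their log2(FPKM + 0.5) in each library, with no test. PFKFB4 exceeded PFKFB3 by 2.68 ± 0.25 in sh-CFB, against 1.75 ± 0.15 in sh-NC (SD, n = 3 each), so that PFKFB4 made up 87.1 ± 2.02% of the pair in sh-CFB, against 77.8 ± 1.68% in sh-NC. PFKM minus PFKL was -1.70 ± 0.41 in sh-CFB, against -0.88 ± 0.18 in sh-NC, and PFKP minus PFKL was 0.51 ± 0.17 in sh-CFB, against 0.92 ± 0.15 in sh-NC. In none of these pairs did the libraries of the groups overlap. The same was true of SLC16A3 minus SLC16A1, but its nearest libraries were 0.449 in sh-CFB and 0.386 in sh-NC. Its difference between groups was 0.62, and ran from 0.09 to 0.79 over 19 alternatives. Over the same alternatives PFKFB4 minus PFKFB3 ran from 0.79 to 1.04. PFKM minus PFKL ran from -0.98 to -0.48 and PFKP minus PFKL from -0.50 to -0.25. LDHB minus LDHA was -6.69 ± 0.10 in sh-CFB, against -7.00 ± 0.15 in sh-NC, also without overlap, but that rests on the 0.5 FPKM added to the low LDHB values. As a plain share of the pair, LDHB was 0.672, 0.759 and 0.814% in sh-CFB, against 0.699, 0.558 and 0.652% in sh-NC. These shares overlapped, and they rest on the uncertain LDHB count. ALDOC with ALDOA and EGLN3 with EGLN1, each with a gene below 0.5 FPKM, likewise overlapped as shares. HK2 minus HK1 was -0.10 ± 0.13 in sh-CFB, against -0.02 ± 0.62 in sh-NC, and SLC2A3 minus SLC2A1 was 0.98 ± 0.27 in sh-CFB, against 1.07 ± 0.07 in sh-NC. Those pairs overlapped, as did BNIP3L with BNIP3 and P4HA2 with P4HA1.

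**Figure D3:**
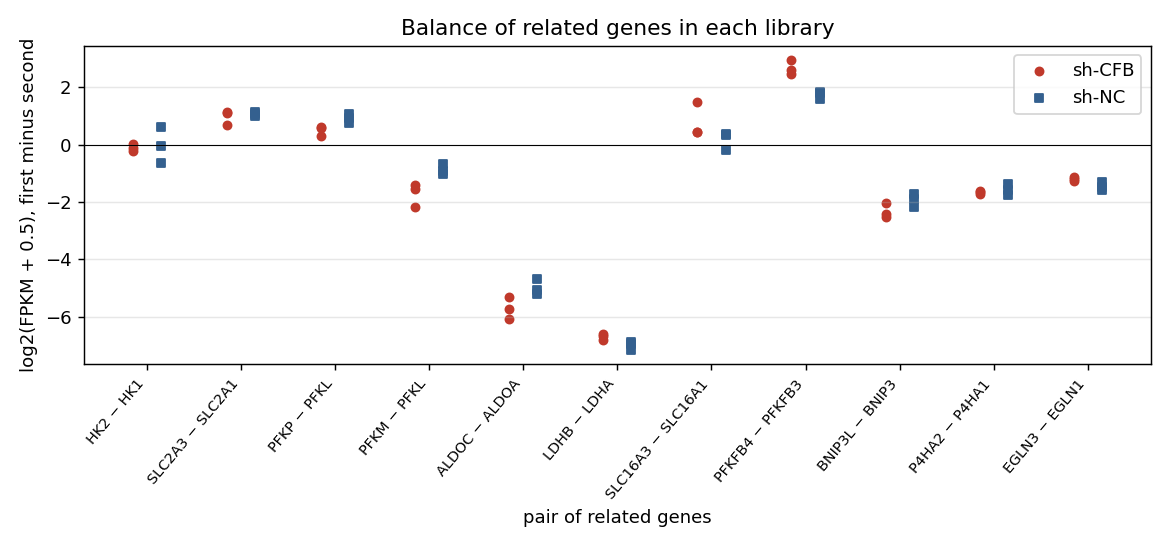
Difference of log2(FPKM + 0.5) between the genes of 11 pairs in each library, first gene minus second, with sh-CFB as circles and sh-NC as squares. PFKFB4 over PFKFB3 is 2.68 on average in sh-CFB, against 1.75 in sh-NC with no shared range, whereas HK2 over HK1 spans more in sh-NC than in sh-CFB.

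HIF1A mRNA varied more within the groups than between them. It was 4.30, 6.43 and 8.55 FPKM in sh-CFB and 9.55, 7.42 and 5.16 FPKM in sh-NC, and the log2 difference was -0.19 with an SE of 0.28 (limma adjusted p 0.707). Without both replicate 1 libraries that difference was 0.24. EGLN1 (PHD2), the main oxygen-dependent hydroxylase of HIF1A, was 0.893, 0.863 and 1.05 FPKM in sh-CFB and 1.72, 1.37 and 1.27 FPKM in sh-NC. All sh-CFB libraries lay below all sh-NC libraries, and the log2 difference of -0.44 (SE 0.17) did not pass (limma adjusted p 0.148). EGLN3 (PHD3), a hydroxylase that HIF itself induces, was 0.0725, 0.130 and 0.173 FPKM in sh-CFB and 0.248, 0.268 and 0.136 FPKM in sh-NC (two-sided exact permutation p 0.2).

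None of the 9 tested HIF targets, EGLN1 included, passed limma's test or its voom alternative, beside a background of 7.45% called by limma. BNIP3, EGLN1 and VEGFA had an unadjusted limma p under 0.05, as had 3225 of all 12466 tested genes. The median log2 difference of the 9 HIF targets was -0.04, beside -0.15 for all tested genes. BNIP3, an inducer of mitophagy, was 154, 174 and 158 FPKM in sh-CFB and 129, 129 and 119 FPKM in sh-NC. Its groups did not overlap, and the log2 difference of 0.37 (SE 0.09) had a limma adjusted p of 0.0545. It passed after the GC correction (0.60, adjusted p 0.0112), and GENCODE 29 names 39 pseudogenes after it, which leaves its count uncertain. VEGFA, the angiogenic ligand, had the opposite sign, with 3.07, 3.996 and 4.996 FPKM in sh-CFB and 9.64, 6.65 and 4.56 FPKM in sh-NC. Its groups overlapped, and the log2 difference of -0.69 (SE 0.27, unadjusted 95% interval -1.31 to -0.06) had a limma adjusted p of 0.162.

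The collagen prolyl hydroxylase subunits P4HA1 and P4HA2 lay close between groups. P4HA1 was 17.7, 20.7 and 23.4 FPKM in sh-CFB and 19.4, 19.5 and 13.9 FPKM in sh-NC, and P4HA2 was 5.38, 6.33 and 6.73 FPKM in sh-CFB and 6.20, 5.43 and 5.10 FPKM in sh-NC. Their log2 differences were 0.23 and 0.13 (limma adjusted p 0.425 and 0.602), and 0.45 and 0.41 after the GC correction (adjusted p 0.0398 and 0.0244). NDRG1, a stress-responsive differentiation gene, was 3.95, 4.001 and 4.14 FPKM in sh-CFB and 3.91, 3.99 and 2.94 FPKM in sh-NC (log2 difference 0.15, limma adjusted p 0.581). BNIP3L, also a mitophagy receptor, was 26.4, 32.3 and 37.9 FPKM in sh-CFB and 39.0, 34.4 and 26.04 FPKM in sh-NC (log2 difference -0.04, limma adjusted p 0.922). All 4 of these overlapped between groups.

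KDM3A, a histone H3 lysine demethylase, was 2.13, 3.56 and 3.51 FPKM in sh-CFB and 5.68, 4.10 and 2.48 FPKM in sh-NC (log2 difference -0.33, limma adjusted p 0.526). ANKRD37 was 9.24, 8.50 and 6.70 FPKM in sh-CFB and 10.9, 12.2 and 6.89 FPKM in sh-NC (log2 difference -0.25, limma adjusted p 0.511). Both overlapped, and 35.2% of the exon bases of ANKRD37 lie opposite UFSP2, so its count is uncertain where strand was not used. CA9, the carbonic anhydrase that is a common marker of hypoxia, had 32, 3 and 15 reads in sh-CFB and 10, 22 and 14 reads in sh-NC. That was 0.759, 0.0559 and 0.243 FPKM in sh-CFB and 0.158, 0.342 and 0.264 FPKM in sh-NC (two-sided exact permutation p 0.9). The highest and the lowest CA9 values were both sh-CFB libraries, and 38.5% of its exon bases lie opposite ARHGEF39.

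Within the groups, HIF1A and its targets showed an order among libraries that many of the tested genes shared. Within sh-CFB, replicate 1 was the lowest library for 8 of these 10 tested genes. Within sh-NC, replicate 3 was the lowest for 10 of 10 and replicate 1 the highest for 6. Over all tested genes the same libraries held these positions for 65.3%, 54.2% and 56.1% of genes. Over the 22 tested genes of the glycolytic steps they did so for 45.5%, 59.1% and 36.4%. The median difference of the HIF targets was -0.04 over all 6 libraries and 0.22 without both replicate 1 libraries. It was 0.10 without sh-CFB replicate 1 alone and 0.09 without sh-NC replicate 1 alone, and with all 6 libraries it was 0.17 after the GC correction and 0.17 under median-of-ratios scaling. Beside these, the median of all tested genes was -0.15 over all 6 libraries and -0.001 without both replicate 1 libraries. It was -0.05 without sh-CFB replicate 1 alone, -0.08 without sh-NC replicate 1 alone, 0.01 after the GC correction and 0.02 under median-of-ratios scaling. The HIF target median lay above it each time, with no test, and the sign of the HIF target median was not settled.

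**Figure D4:**
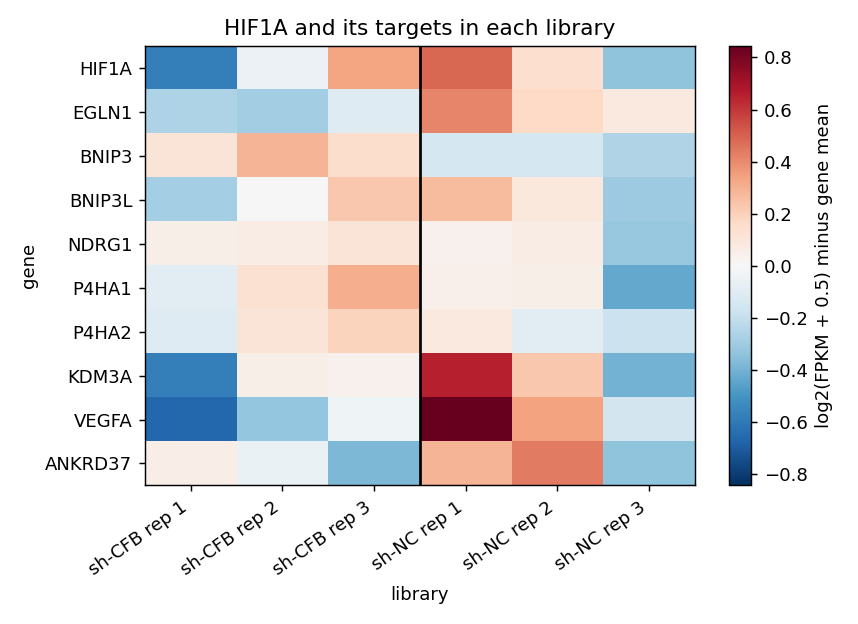
Level of HIF1A and its 9 tested targets in each library, as log2(FPKM + 0.5) minus the mean of the gene over the 6 libraries, sh-CFB left of the line and sh-NC right of it. VEGFA, KDM3A and HIF1A run from low in sh-CFB replicate 1 to high in sh-NC replicate 1, and every gene is lowest of the sh-NC libraries in replicate 3.

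Across the 32 tested genes, the log2 difference between groups and the GC content of the transcript had a Spearman correlation of 0.44, and across 12397 tested genes it was 0.31. These are descriptions across genes that share the same 6 libraries. Without both replicate 1 libraries the correlation over the 32 genes was 0.09. The median GC content was 53.0% for the tested glycolytic step genes and 44.1% for the tested HIF targets, so a comparison of these groups of genes is also one of GC content.

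**Figure D5:**
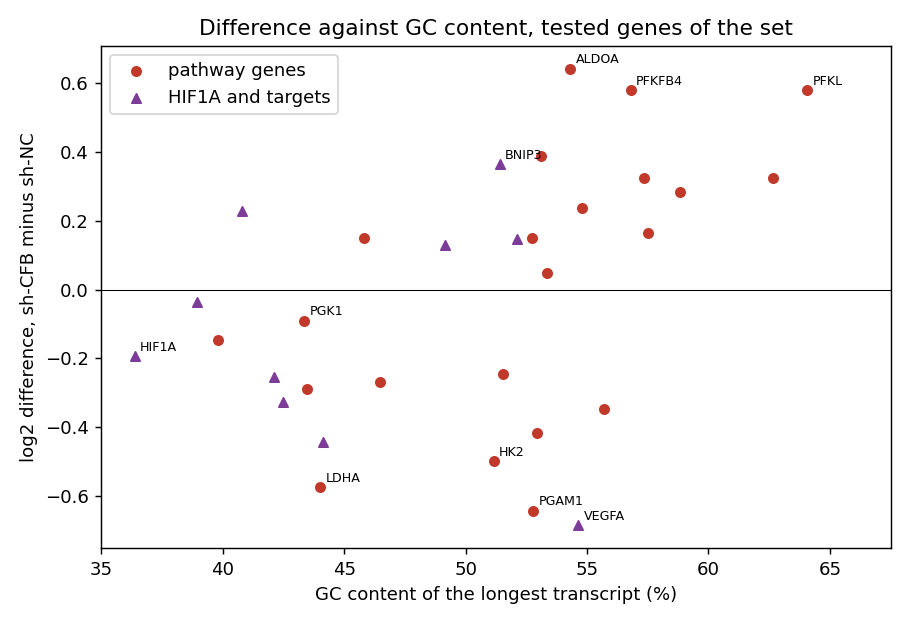
Log2 difference of FPKM + 0.5, sh-CFB minus sh-NC, against the GC content of the longest transcript, for pathway genes as circles and for HIF1A with its targets as triangles. Points rise towards higher GC content with a Spearman correlation of 0.44, and PGAM1 and VEGFA lie low in spite of a GC content above 50%.

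Genes next to these in the same pathways were read from lists of names. Of 30 further genes of glycolysis and glucose use, 15 were tested, 2 rose and 0 fell, or 13.3% beside a background of 7.45%. ENO2, the neuronal enolase, was 149, 149 and 170.0 FPKM in sh-CFB and 114, 121 and 102 FPKM in sh-NC (log2 difference 0.48, limma adjusted p 0.0384). LDHD, which oxidises D-lactate in mitochondria, was 8.65, 6.25 and 6.57 FPKM in sh-CFB and 3.44, 3.77 and 4.45 FPKM in sh-NC (log2 difference 0.80, limma adjusted p 0.0313). Neither overlapped between groups. Leaving out any one library ended the ENO2 call (adjusted p 0.0616 to 0.130), and the LDHD call stood only without sh-NC replicate 3 (adjusted p 0.0445, against 0.0568 to 0.144 without each of the others). The median of the 15 was 0.00. After the GC correction 4 of the 15 were called higher, beside a background of 4.56%, and 1 was called lower, beside a background of 6.04%. These were ENO2 and LDHD with, named after their values were seen, ENO3 (0.45, adjusted p 0.0388) and BSG (0.40, adjusted p 0.0347) higher and SLC2A6 (-0.73, adjusted p 0.0303) lower.

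In the list for the fate of pyruvate in mitochondria, 4 of 13 tested genes were called (30.8%, beside a background of 7.45%), 1 higher and 3 lower. PC, the pyruvate carboxylase that makes oxaloacetate, rose, with 17.997, 15.9 and 16.4 FPKM in sh-CFB and 9.95, 10.2 and 9.15 FPKM in sh-NC. The difference was 0.75 (SE 0.10, limma adjusted p 0.0129), and 15 of 19 alternatives kept it past the threshold. PDHA1, the E1 alpha subunit of pyruvate dehydrogenase, fell, with 10.9, 11.9 and 12.2 FPKM in sh-CFB and 17.4, 18.4 and 19.4 FPKM in sh-NC (log2 difference -0.63, limma adjusted p 0.0152). DLAT, the E2 subunit, fell as well, with 2.52, 3.29 and 2.91 FPKM in sh-CFB and 5.16, 4.79 and 4.26 FPKM in sh-NC (log2 difference -0.62, limma adjusted p 0.0478). PDHB, the E1 beta subunit, named here after its values were seen, completed the calls at -0.53 (limma adjusted p 0.0257). The PC and PDHA1 calls were lost without sh-CFB replicate 2 (adjusted p 0.0575 and 0.0666) and without sh-NC replicate 2 (adjusted p 0.0811 and 0.103). The DLAT call was lost without any one library (adjusted p 0.0687 to 0.196), and the PDHB call stood only without sh-CFB replicate 3 (adjusted p 0.0486, against 0.0514 to 0.144). After the GC correction PC passed (adjusted p 0.00745), and PDHA1, DLAT and PDHB did not (adjusted p 0.0987, 0.0926 and 0.239).

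In the pentose phosphate and gluconeogenesis list, 1 of 10 tested genes rose and 2 fell (30% called, beside a background of 7.45%). TKT, the transketolase, was 249, 205 and 195 FPKM in sh-CFB and 124, 149 and 162 FPKM in sh-NC (log2 difference 0.57, limma adjusted p 0.0479). RPIA, the ribose 5-phosphate isomerase, was 7.23, 6.48 and 7.54 FPKM in sh-CFB and 10.9, 9.53 and 11.1 FPKM in sh-NC (log2 difference -0.54, limma adjusted p 0.0385). PGD, the 6-phosphogluconate dehydrogenase, was 94.6, 101 and 105 FPKM in sh-CFB and 139, 139.6 and 128 FPKM in sh-NC (log2 difference -0.44, limma adjusted p 0.0312). None of these calls stood after the GC correction, with adjusted p of 0.0627 for TKT, 0.0885 for RPIA and 0.0809 for PGD. The correction called PGLS higher (0.36, adjusted p 0.0411) and PCK2 lower (-0.58, adjusted p 0.0309), both named after their values were seen. Leaving out any one library ended the TKT and RPIA calls (adjusted p 0.0527 to 0.167), and the PGD call stood only without sh-NC replicate 3 (adjusted p 0.0449, against 0.0676 to 0.167). Of the calls in these lists of neighbouring genes, PC alone stood under median-of-ratios scaling (adjusted p 0.0429).

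None of the 12 tested genes of the HIF machinery (partners of HIF1A, its VHL ligase and its modifiers) was called by limma, beside a background of 7.45%. An unadjusted limma p under 0.05 was found for 3 of the 12, and for 3225 of all 12466 tested genes. The most abundant of the 12, ELOB, an adaptor of the VHL ligase, was 418, 338 and 299 FPKM in sh-CFB and 248, 296 and 369 FPKM in sh-NC (log2 difference 0.21, limma adjusted p 0.498). After the GC correction CITED2, named after its values were seen, was called higher (0.64, adjusted p 0.0273). Of 30 tested genes in a further list of HIF targets, 1 rose and 0 fell (3.33% called, beside a background of 7.45%), with a median of -0.10. The 1 was PLOD1, a collagen lysyl hydroxylase, at 102, 89.3 and 87.2 FPKM in sh-CFB and 58.8, 64.6 and 58.0 FPKM in sh-NC. Its log2 difference was 0.61 (SE 0.10, limma adjusted p 0.0157), and it passed after the GC correction too (adjusted p 0.0128), as did MXI1 (0.46, adjusted p 0.0275), a gene picked once its values had been seen. The PLOD1 call was lost without sh-CFB replicate 2 (adjusted p 0.0654), sh-NC replicate 1 (0.0545) or sh-NC replicate 2 (0.0843). Fitted log2 differences understate the change of genes with few reads, because 0.5 FPKM was added to each value.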

How the data were processed

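Poly(A) RNA-seq libraries (TruSeq Stranded mRNA) of 3 sh-CFB and 3 sh-NC samples were read as the FPKM the authors deposited, 1 value per gene and library. Per the submitters' processing notes, FastQC 0.11.9, Trimmomatic 0.39, STAR 2.7.3a, featureCounts 2.0.1 and GRCh38 were used. Annotation release, strand setting and FPKM formula were not given in the sources used here. FPKM steps gave whole reads, within 0.02, for 99.99% of genes, from which read totals were recovered. A floor of 3 reads in a gene of 2000 bases equals 0.0375 to 0.0572 FPKM, and covers counting error only. The deposited FPKM were put on a log2(FPKM + 0.5) scale, genes with a mean of at least 0.5 FPKM were kept (12466), and limma 3.58.1 (R 4.3.3, trended eBayes) compared sh-CFB with sh-NC over all 6 libraries with no covariate, with Benjamini-Hochberg adjustment at 0.05. Genes below that mean had a two-sided exact permutation test. Symbols came from the gene name table (22492 of 28495 IDs), coordinates, GC content, overlaps and pseudogenes from GENCODE 29 (GRCh38), and promoters from RefSeq. The correction for GC content and length (the GC correction) removed natural splines of GC content and log2 length from each library's deviations. The fits were tested on simulated data.

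The members and lists were chosen with earlier results of these data known. Named genes were all 35 members and, in each list of neighbouring genes, up to 2 called genes per direction or, with none, the most abundant tested gene. Alternatives were 2 other pseudocounts, 2 other filters, 3 other scalings, the GC and length correction, limma's voom on the recovered reads, a replicate block, and leaving out single libraries or both replicate 1 libraries. For neighbouring genes and pair balances they were applied after seeing the data.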

Additional observations from a re-analysis of the deposited data

How the results depend on the processing

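PGAM1 was called in 13 of 19 alternatives, LDHA in 12 and PFKL in 5, and none of these 3 changed sign. Of the set, 3 genes were called, against 5 with a filter at 2 FPKM (HK1 and BNIP3 added), 6 after the GC correction and 0 with median-of-ratios scaling, with voom under that scaling, and with a replicate block, with or without the GC correction (limma; 11, 13, 12 and 8 of the set had an unadjusted p under 0.05 under median-of-ratios scaling, voom with it, the block with the correction and the block alone). Leaving out single libraries gave 0 to 3 calls, 0 without sh-CFB replicate 2 or sh-NC replicate 2. Over all 12466 tested genes, 3225 had an unadjusted p under 0.05 in the main limma fit. Under median-of-ratios scaling 2723 did, and with voom under that scaling 2737 did. With the filter at 2 FPKM, 288 of the 8071 genes then tested were called higher and 884 lower. After the GC correction 569 of 12466 were called higher and 753 lower. All tested genes gave 929 calls, against 324 without a filter, 206 with median-of-ratios scaling, 310 with voom under that scaling, 675 with voom on the recovered reads, 0 with the replicate block (1770 at an unadjusted p under 0.05) or with it and the GC correction (2478), and 20 to 540 with single libraries left out. Of those calls 23.4% were higher in sh-CFB, against 42.2% with quantile normalization, 39.4% with voom under median-of-ratios scaling and 43.0% after the GC correction. The deviations of same-numbered samples from their group means had r of -0.54, 0.07 and -0.45, and -0.33, 0.09 and -0.28 after the GC correction. Pairing by number was not seen, but the uncorrected values also carry the GC differences between libraries, and pairing was not tested otherwise. Before the correction, sh-CFB replicate 1 correlated best with sh-NC replicate 3 (0.57).

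The glycolytic median of 0.10 was 0.30 with median-of-ratios scaling, -0.028 with quantile normalization, 0.22 after the GC correction with or without the replicate block, 0.31 with voom under median-of-ratios scaling, and 0.019 to 0.12 with single libraries left out. The HIF target median of -0.04 was 0.17 with median-of-ratios scaling, with voom under it and after the GC correction, 0.048 with quantile normalization, 0.046 with a filter at 2 FPKM, 0.22 without both replicate 1 libraries and -0.20 to 0.10 with single libraries left out. With single libraries left out, the median of all tested genes ran from -0.22 to -0.05.

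Among genes that did not pass, signs turned as follows. With median-of-ratios scaling PGK1 was 0.11 and BNIP3L 0.17. With voom under it HIF1A was 0.0047, PGK1 0.12, PDK1 0.012 and BNIP3L 0.17. With quantile normalization GAPDH was -0.17, ENO1 -0.014, PKM -0.042 and BNIP3L 0.048, and with equal totals PKM was -0.010. After the GC correction, with or without the replicate block, PGK1 was 0.17, LDHB 0.019, PDK1 0.053 and BNIP3L 0.17. Without both replicate 1 libraries HIF1A was 0.24, ENO1 -0.022, PKM -0.089, SLC16A1 0.045, PDK1 0.24, BNIP3L 0.22, KDM3A 0.13 and ELOB -0.057. With single libraries left out, HIF1A ran from -0.41 to 0.046, SLC2A3 ran from -0.044 to 0.27, PKM ran from -0.030 to 0.10, PDK1 ran from -0.30 to 0.081 and BNIP3L ran from -0.20 to 0.10. The cause was not tested. At these depths CFB, CA9, EGLN3 and ALDOC rest on few reads.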
